A study of Rattus with 18 samples.

Results

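Apoptosis in the glomerulus was followed here through 8 genes: Mdm2, Ccng1 and Gadd45a, which p53 transcribes, Bax and Fas, which p53 also transcribes and which act in cell killing, and the anti-apoptotic Bcl-2 relatives Bcl2a1, Bcl2 and Bcl2l1. They were taken by gene symbol from an array of 23187 genes and transcripts that passed the filter on dim probes, and all 8 passed it. The 8 genes had 16 probes, of which 15 passed, and each gene's level is that of its brightest probe unless another is named. The animals were rats of strain SD weighing 200 g, and the tissue was glomerulus. Anti-Thy1 antibody, whose antigen sits on the membrane of mesangial cells in rats, was given to 30 animals that were killed 1, 2, 3, 4 or 5 days later, while 6 animals received saline and were killed at day 0. For each time point the submitters took 3 glomeruli from each of 6 rats, and 3 arrays per time point, 18 in all, were analysed here. The labels do not say which rats stand behind an array, so the p-values measure the spread between arrays, which may in part be technical.

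The antibody lyses mesangial cells through complement, after which macrophages enter the tuft and surviving mesangial cells divide, and surplus cells are later removed by apoptosis. In this setting p53 is a transcription factor that responds to DNA damage and stress. Its product Mdm2 feeds back to degrade it, while Bax and the death receptor Fas carry the signal towards caspases. Bcl-2 family proteins of the Bcl2, Bcl-xL (Bcl2l1) and A1 (Bcl2a1) type hold Bax and its relatives in check at the mitochondrion, and A1 is best known from blood cells. Each level below is log2 of a probe's processed signal minus log2 of its array's 75th percentile, so levels can be compared between arrays for 1 probe but not between probes.

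A few of the probes carry the results on Bcl2l1, Bcl2a1, Fas, Mdm2, Ccng1 and Bax, and their 60-base sequences are given 5′ to 3′ with the rn4 positions named in the file headers. The capitals in the first Bcl2l1 probe mark the start codon with which it begins. The first line lies at chr3:143178503-143178562 and the second at chr3:143178021-143178080, both on the minus strand and 482 bases apart.
Bcl2l1, start codon probe: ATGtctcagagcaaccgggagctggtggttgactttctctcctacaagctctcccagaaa
Bcl2l1, second upstream probe: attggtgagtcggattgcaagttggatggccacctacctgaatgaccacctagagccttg
Bcl2a1: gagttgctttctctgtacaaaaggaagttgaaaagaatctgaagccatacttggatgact
Fas, upstream probe: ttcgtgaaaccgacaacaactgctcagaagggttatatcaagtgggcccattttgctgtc
Mdm2, upstream probe: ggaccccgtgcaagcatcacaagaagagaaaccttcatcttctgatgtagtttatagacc
Ccng1, upstream probe: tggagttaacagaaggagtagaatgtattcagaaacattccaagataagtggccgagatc
Bax, second probe: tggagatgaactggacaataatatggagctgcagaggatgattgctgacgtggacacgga
The Bcl2a1 probe lies at chr8:94045244-94045303 on the plus strand and the Fas probe at chr1:238259523-238259582 on the plus strand. The Mdm2 probe maps to chr7:57005501-57005835 and the Ccng1 probe to chr10:25778638-25778912, both on the minus strand. These spans of 335 and 275 bases are longer than the 60-base probes. No position was given for the Bax probe. The probes that gave the level of Mdm2, Ccng1, Gadd45a, Bax, Fas and Bcl2l1 lie at chr7:56996880-56996939, chr10:25776868-25776927, chr4:96650454-96650513, chr1:95932941-95933000, chr1:238273471-238273530 and chr3:143129343-143129402, and that of Bcl2, aimed at the transcript deposited as Bcl-2 beta, at chr13:12903960-12904017. Whether a probe is in an exon or a UTR was not looked up, since no annotation of this build was used here.

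The labels were checked against known genes before the comparisons. Thy1 was at -3.15, -4.14 and -2.73 on day 1, against -0.02, 0.46 and -0.70 on day 0, a change of -3.25 ± 0.59 (SE, as for all changes below, limma adjusted p = 0.0026). Of 13 tested mesangial markers, 4 fell and 1 rose on day 1, where 20.7% of all genes fell and 19.2% rose. Their mean log2 level was -0.08 to 0.42 on day 1, against 0.69 to 1.12 on day 0. Their summed level, in multiples of the array's 75th percentile, was 40.4 to 46.4 against 31.5 to 47.6. The macrophage gene Gpnmb rose by 6.10 on day 1, 5.09 on day 2, 5.47 on day 3 and 2.30 on day 4. On day 5 it was at 1.82 and did not pass (limma adjusted p = 0.11). Cd68, another macrophage marker, changed less, by 2.48, 2.31 and 2.89 on days 1 to 3. Its 0.85 on day 4 and 0.89 on day 5 did not pass (adjusted p = 0.214 and 0.203). The podocyte gene Nphs1, which encodes nephrin, lay between 4.32 and 5.32 on all 18 arrays. Of the 12 podocyte markers, however, 3, 2, 3, 4 and 4 fell on days 1 to 5, and 1 rose, on day 5. Of all genes, 20.7% to 26.7% fell on these days. The podocyte markers' mean log2 level was 2.6 to 2.9 on day 1, against 3.1 to 3.3 on day 0. All 16 tested macrophage markers of 17 listed were well above background on 17 of the 18 arrays, and 15 of them on control replicate 5. Their summed level was 42.9 to 77.7 on day 0, 227 to 312 on day 1, 195 to 337 on day 2, 404 to 481 on day 3, 50.7 to 222 on day 4 and 60.4 to 311 on day 5, where 1 is the 75th percentile of an array. Arrays lay on 5 slides that were scanned on 2 days. Days 2 and 4 were scanned together, and days 0, 1, 3 and 5 on the other day, and all 3 control arrays shared a slide with a single antibody array, day 1 replicate 1. The effects of days 2 and 4 against the controls therefore cannot be told apart from that of the scan day. On the controls' own slide, the antibody array had Ccng1 at 2.05 and Bcl2a1 at -0.14, above all 3 controls, and Gadd45a at 3.02, below all 3. Controls had the lowest 75th percentiles, between 181 and 229, within a range of 181 to 452.

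**Figure D1:**
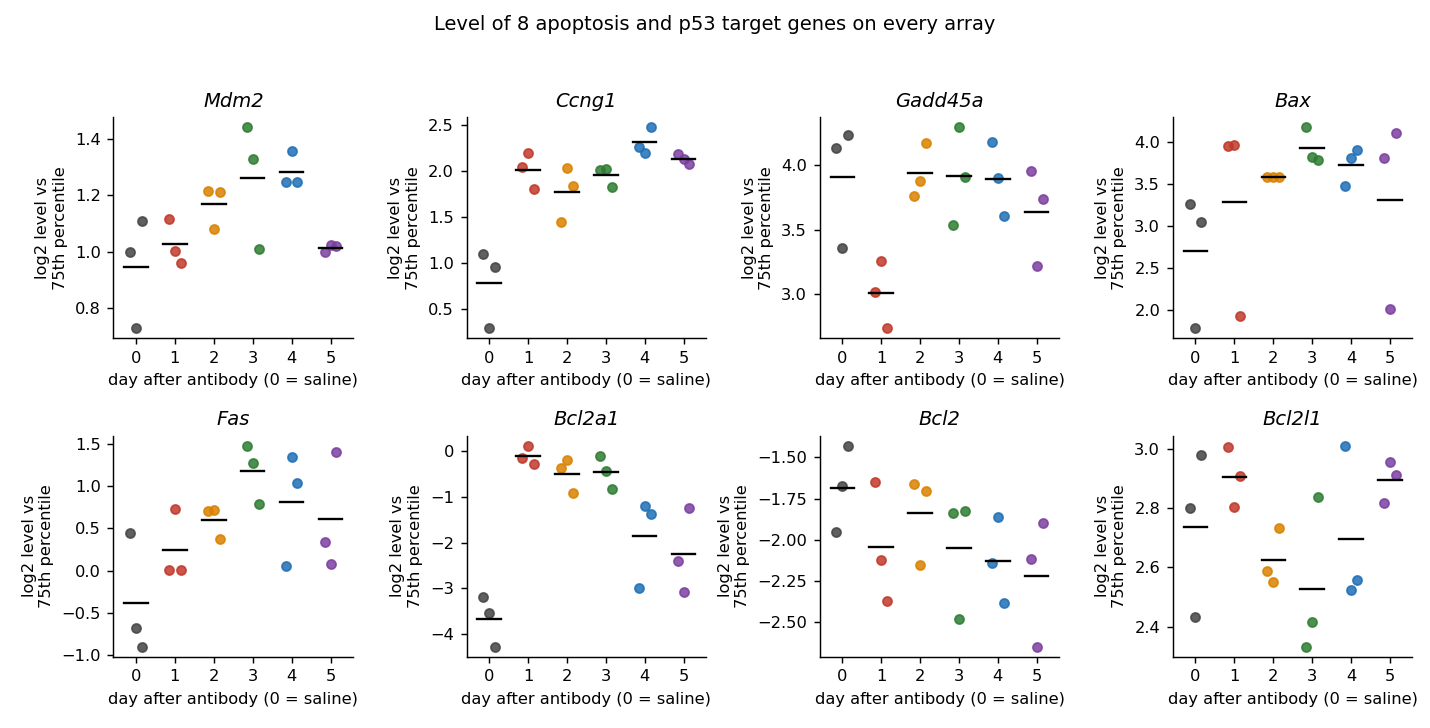
Level of each of the 8 genes on all 18 arrays, as log2 of the signal minus log2 of the array's 75th percentile (y axis, a separate scale in each panel), by day after antibody (x axis, day 0 is saline). Points are arrays and bars are means of 3, and Bcl2a1 and Ccng1 lie above their controls on every antibody array.

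Bcl2a1 and Ccng1 were the members that rose on every day after the antibody, Fas rose on days 3 and 4, and Gadd45a fell on day 1. In limma's fit of all 18 arrays with Benjamini-Hochberg adjustment over all genes, 3 of 8 members passed an adjusted p of 0.05 on day 1, where 40% of all genes did. The count was 2 on day 2 (45.9% of all genes), 3 on day 3 (47.7%), 3 on day 4 (52.3%) and 2 on day 5 (44.3%). The members' share was thus below the background on each day. The members' median change was 0.38, 0.55, 0.74, 0.69 and 0.39 on days 1 to 5, against 0.06, 0.05, -0.02, 0.05 and 0.06 over all genes. Over the 6 time points, Ccng1, Gadd45a and Bcl2a1 passed the moderated F-test, which 53.1% of all genes passed.

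Ccng1, which encodes cyclin G1, a p53 target that binds a phosphatase acting on Mdm2, was at 1.10, 0.29 and 0.96 on the 3 control arrays. It was at 2.05, 2.20 and 1.81 on day 1, at 1.45, 2.04 and 1.84 on day 2, at 2.02, 2.03 and 1.83 on day 3, at 2.27, 2.20 and 2.48 on day 4 and at 2.19, 2.14 and 2.08 on day 5. No antibody array overlapped the controls, and the lowest, day 2 replicate 2, was still above the highest control. The share of all genes or probes that separate from the controls in this way was not computed, here and for the members below. Such separation is given as a description. The change was 1.23 on day 1, 0.99 on day 2, 1.17 on day 3, 1.53 on day 4 and 1.35 on day 5, each with an SE of 0.20. These are 2.35-, 1.98-, 2.25-, 2.89- and 2.55-fold higher levels, with adjusted p between 0.000188 and 0.00215. The highest mean, on day 4, exceeded the day 2 mean by 0.54 with no overlap between the 2 groups of arrays, which did not pass the test (limma adjusted p = 0.268). Ccng1's other probe, whose sequence is given above, changed by 0.93, 0.82, 0.81, 0.20 and 0.96 on days 1 to 5 with an SE of 0.68 and passed on none of them. Its values fell into a lower set from -0.96 to 0.06 and an upper set from 0.76 to 1.37. Both sets held arrays of day 0 and of days 1, 2, 3 and 5, while all 3 arrays of day 4 were in the lower one.

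Mdm2, the ubiquitin ligase that degrades p53, did not pass on any day. It was at 1.00, 0.73 and 1.11 on day 0, at 1.12, 1.00 and 0.96 on day 1, at 1.22, 1.08 and 1.21 on day 2, at 1.44, 1.33 and 1.01 on day 3, at 1.25, 1.36 and 1.25 on day 4 and at 1.00, 1.02 and 1.02 on day 5. Only day 4 did not overlap the controls. Its change there, 0.34 ± 0.14 (SE, limma adjusted p = 0.0552), was its largest on any of the 5 days and missed the threshold. Leaving out control replicate 5 gave 0.42 (adjusted p = 0.0366), and leaving out day 3 replicate 4 gave 0.44 for day 3 (adjusted p = 0.0225). Its upstream probe ran the other way, with changes from -0.27 on day 1 to -0.10 on day 3, and passed on no day. The direction of Mdm2 depended on the scaling. With reference genes it was lower on days 1 and 5, at -0.38 and -0.36 (adjusted p = 0.0259 and 0.0315), and with median scaling it was higher on days 2 to 5, at 0.60, 0.71, 0.74 and 0.49 (adjusted p from 0.00232 to 0.0263). Day 4 also passed with the slide as a random block (0.0494) and with normexp background correction on the 16 arrays where it worked (0.0229).

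Gadd45a, a stress-response protein that p53 induces and that slows the cell cycle, fell on day 1. It was at 3.02, 3.26 and 2.74 on day 1, against 4.13, 3.36 and 4.23 on day 0, and the groups did not overlap. The change was -0.90 ± 0.27, a 1.87-fold lower level (limma adjusted p = 0.0185). On days 2, 3 and 4 its mean was 3.94, 3.91 and 3.89, against 3.91 on day 0, and day 5 was at 3.64. Day 5, at -0.27 and not past the threshold, passed with quantile normalization, at -0.63 (adjusted p = 0.0425), and with reference genes, at -0.70 (0.035). The day 1 call rested on single arrays, as the adjusted p was 0.0525 without control replicate 2, 0.0643 without control replicate 5, 0.0504 without day 1 replicate 1 and 0.0551 without day 1 replicate 5, and with median scaling the change was -0.57 (0.139). Day 3 was 0.91 above day 1 without overlap, which did not pass (adjusted p = 0.187).

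Bax, which perforates the outer mitochondrial membrane, was higher by 0.59, 0.89, 1.23, 1.04 and 0.61 on days 1 to 5 with an SE of 0.56, and passed on none of these days. Day 3 passed with median scaling (1.62, limma adjusted p = 0.033), in a fit of only the 6 arrays of both days (0.0416) and with normexp on the 16 arrays where it worked (0.0287), which also called day 4 (0.0417), while median scaling gave 0.05 there. On days 2, 3 and 4 its 9 arrays ran from 3.48 to 4.18 and lay above all controls, which were at 3.27, 1.78 and 3.05. The 3 arrays of day 1 were at 3.96, 3.97 and 1.93, and those of day 5 at 3.82, 2.01 and 4.11. Thus 3 arrays stood apart at about the same low level: control replicate 4, day 1 replicate 5 and day 5 replicate 4. The second Bax probe was lowest on the same 3 arrays, at -0.88, -1.24 and -1.30, where the other 15 lay between -0.48 and 1.03. The Pearson correlation of the 2 probes over the 18 arrays was 0.956. The arrays come from different days and from 3 slides.

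Fas, the death receptor bound by Fas ligand, rose on days 3 and 4. It was at 0.45, -0.68 and -0.90 on day 0, at 0.01, 0.73 and 0.01 on day 1, at 0.71, 0.71 and 0.37 on day 2, at 1.48, 1.28 and 0.79 on day 3, at 0.06, 1.35 and 1.04 on day 4 and at 0.34, 0.08 and 1.40 on day 5. Day 3 lay wholly above the controls, whereas day 4 replicate 1 overlapped them. The change was 1.56 ± 0.41 on day 3, a 2.95-fold higher level (limma adjusted p = 0.00692), and 1.19 ± 0.41 on day 4, a 2.29-fold higher level (adjusted p = 0.0255). Days 1, 2 and 5 gave 0.63, 0.98 and 0.98 and did not pass, with adjusted p of 0.233, 0.0658 and 0.0649. The call of day 4 was lost without control replicate 4 (adjusted p = 0.0945), control replicate 5 (0.101), day 4 replicate 2 (0.108) or day 4 replicate 3 (0.0781), and without control replicate 2 both day 2 and day 5 passed (0.0144 and 0.0146), as did day 5 without day 5 replicate 4 (0.0405). Day 4 was at 0.60 with reference genes (adjusted p = 0.216) and 0.82 with the mean of its probes (0.105), and did not pass with only the 6 arrays of both days (0.0663). Day 2 passed with median scaling (0.0164) and with normexp on the 16 arrays (0.0279), and day 5 with median scaling (0.013). Fas's upstream probe gave 0.80 on day 3 and passed on no day. Over the 15 antibody arrays the level of Fas correlated with the log2 summed level of 12 proliferation markers (r = 0.822) and of 10 lymphocyte and NK cell markers (r = 0.75), a description of arrays that share their scaling. Macrophage, endothelial and tubule markers gave 0.622, 0.544 and -0.713, and mesangial, neutrophil and podocyte markers 0.231, 0.118 and -0.113. All 12 proliferation markers rose on days 2 and 3. The tissue is labelled glomerulus, but all 12 tubule markers were well above background on every array. Their summed level ran from 526 on day 3 replicate 2 to 982 on day 4 replicate 1. In such samples, changes in cell numbers, tubule cells included, cannot be told apart from changes in RNA per cell. The part of either in the rise of Fas was not tested.

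**Figure D2:**
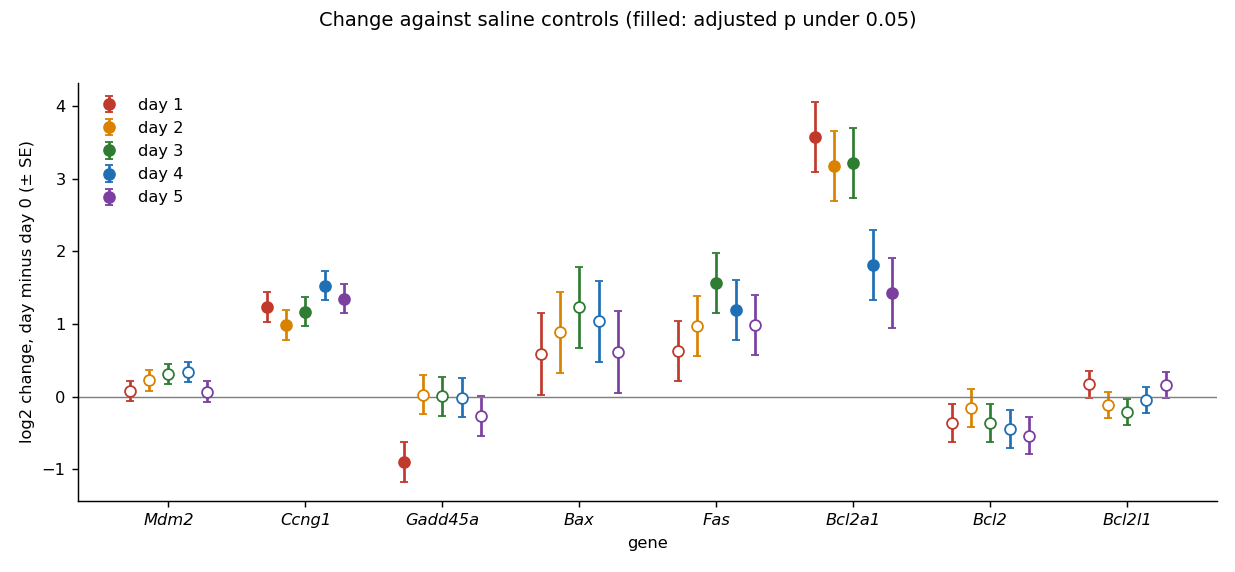
Log2 change on days 1 to 5 against day 0 (y axis) for each of the 8 genes (x axis), with bars for the SE and 3 arrays a day. Filled points passed an adjusted p of 0.05, which holds for Bcl2a1 and Ccng1 on all 5 days, for Fas on days 3 and 4 and for Gadd45a on day 1.

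Bcl2a1, the A1 protein that blocks apoptosis in blood cells, moved most of the 8. It was at -3.19, -3.55 and -4.28 on day 0, at -0.14, 0.12 and -0.27 on day 1, at -0.37, -0.19 and -0.91 on day 2, at -0.09, -0.43 and -0.82 on day 3, at -3.0, -1.20 and -1.37 on day 4 and at -2.41, -3.09 and -1.24 on day 5. Every antibody array lay above the controls, with day 4 replicate 1 and day 5 replicate 4 close to them. The change was 3.57 on day 1, 3.18 on day 2 and 3.22 on day 3, each with an SE of 0.48, or 11.9-, 9.07- and 9.34-fold higher levels (limma adjusted p from 0.000541 to 0.000991). It was 1.81 on day 4 (3.52-fold, adjusted p = 0.00623) and 1.43 on day 5 (2.69-fold, adjusted p = 0.0266). The call of day 5 was lost without control replicate 4 (adjusted p = 0.0632), control replicate 5 (0.0989) or day 5 replicate 5 (0.133), and with normexp background correction on the 16 arrays where it worked, which leaves out day 5 replicate 5, the change was -0.0155. On the same 16 arrays the change on day 4 was 0.38 and did not pass (adjusted p = 0.172). With scaling to reference genes day 5 was at 1.00 (0.107).

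The later decline of Bcl2a1 did not pass between days scanned together. The difference was -2.15 for day 5 against day 1 (limma adjusted p = 0.119), -1.80 for day 5 against day 3 (adjusted p = 0.166) and -1.37 for day 4 against day 2 (adjusted p = 0.24), in each case with no overlap between arrays. Without day 5 replicate 5, the difference of day 5 from day 1 was -2.65 and passed (adjusted p = 0.0392), as did that from day 3, -2.30 (adjusted p = 0.0188). Macrophage markers moved with this gene. Of the 16 tested, 10 rose on day 1, 13 on day 2, 14 on day 3, 7 on day 4 and 2 on day 5, and none fell. The arrays with the lowest Bcl2a1 on days 4 and 5 were also those with the lowest summed macrophage level of their day, 50.7 on day 4 replicate 1 and 60.4 on day 5 replicate 4, both inside the range of the controls. Over the 15 antibody arrays the level of Bcl2a1 and the log2 of that sum had a Pearson correlation of 0.888 and a Spearman correlation of 0.725. For the 4 tested neutrophil markers of 11 listed the Pearson correlation was 0.112. Their summed level was 4.46 to 5.47 on day 1 and 5.16 to 9.17 on day 5, against 0.717 to 1.87 on day 0. Lymphocyte and NK cell, endothelial and proliferation markers gave Pearson correlations of 0.739, 0.64 and 0.544. Mesangial, tubule and podocyte markers gave -0.463, -0.565 and -0.613. The part of any of these cell types in the level of Bcl2a1 was not tested.

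**Figure D3:**
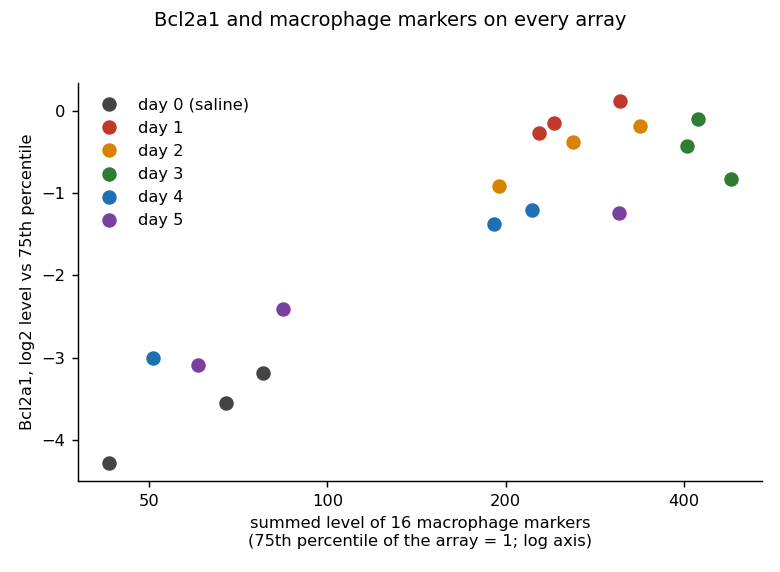
Bcl2a1 on each of the 18 arrays (y axis, log2 level against the array's 75th percentile) and the summed level of 16 macrophage markers on the same array (x axis, log scale). Day 4 replicate 1 and day 5 replicates 2 and 4 sit near the controls on both axes.

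Bcl2, the founding anti-apoptotic member of the family, did not pass on any day with the 75th percentile as scale. It was at -1.95, -1.67 and -1.43 on day 0, at -1.65, -2.12 and -2.37 on day 1, at -1.66, -2.15 and -1.70 on day 2, at -1.84, -2.48 and -1.82 on day 3, at -2.14, -1.86 and -2.38 on day 4 and at -2.12, -2.65 and -1.90 on day 5. The groups overlapped on all 5 days. The change ran from -0.15 on day 2 to -0.54 on day 5 (limma adjusted p = 0.103 on day 5). With scaling to reference genes Bcl2 was lower on days 1, 3, 4 and 5, at -0.82, -0.78, -1.04 and -0.96 (adjusted p from 0.00542 to 0.029), and with normexp on the 16 arrays it passed on day 4, at -0.47 (0.0197). The probe for the other Bcl2 transcript was well above background on 12 of 18 arrays. These included all 3 of days 0, 2 and 4, but 1 of 3 on each of days 1, 3 and 5. On days 2 and 4 it changed by -0.22 and -0.45 and did not pass. On day 5 its measured change of -0.70 passed (limma adjusted p = 0.0453 over all probes), where 44.8% of all probes did. That value rests in part on dim arrays, so its size is uncertain, and days 1 and 3 did not pass.

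Bcl2l1 gave different answers along its length. Its brightest probe, the far downstream one, ran from 2.33 to 3.01 on the 15 antibody arrays, against 2.80, 2.43 and 2.98 on day 0. It did not pass on any day, with changes of 0.17, -0.11, -0.21, -0.04 and 0.16 on days 1 to 5 and an SE of 0.18. Other scalings changed this, with -0.51, -0.63 and -0.64 on days 2, 3 and 4 with reference genes (limma adjusted p = 0.0375, 0.0127 and 0.01), -0.49 on day 3 with quantile normalization (0.025) and 0.58 on day 5 with median scaling (0.0283). Over the 15 antibody arrays the level of this probe had a Pearson correlation of 0.694 with the log2 summed level of tubule markers. Proliferation, lymphocyte and NK cell, endothelial and macrophage markers gave -0.758, -0.735, -0.598 and -0.523. Mesangial, podocyte and neutrophil markers gave 0.249, 0.072 and -0.053. The part of any of these cell types in the level of the far downstream probe was not tested. The start codon probe, which lies 49160 bases upstream of it on the genome, was at 0.54, 1.96 and 0.95 on day 0, at -0.54, -0.66 and 0.37 on day 1, at -0.49, -1.11 and -0.73 on day 2, at -0.77, -0.86 and -0.38 on day 3, at -0.33, -1.12 and -0.97 on day 4 and at -0.68, -0.16 and -0.52 on day 5. All antibody arrays lay below all controls. Its change was -1.43, -1.93, -1.82, -1.96 and -1.60 with an SE of 0.35, or 2.69-, 3.80-, 3.54-, 3.89- and 3.04-fold lower levels (limma adjusted p from 0.000548 to 0.00726). The second upstream probe changed by -1.05, -1.24, -1.10, -1.41 and -1.05 with an SE of 0.28, or 2.07- to 2.67-fold lower levels (adjusted p from 0.000999 to 0.0106). Its call on day 1 was lost without control replicate 4 (adjusted p = 0.0569). At this level of single probes 40.2%, 46.4%, 48.6%, 53% and 44.8% of all 27836 passed on days 1 to 5. The fourth probe, 1399 bases downstream of the start codon probe, was well above background on 2 control arrays and on none of the 15 antibody arrays.

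**Figure D4:**
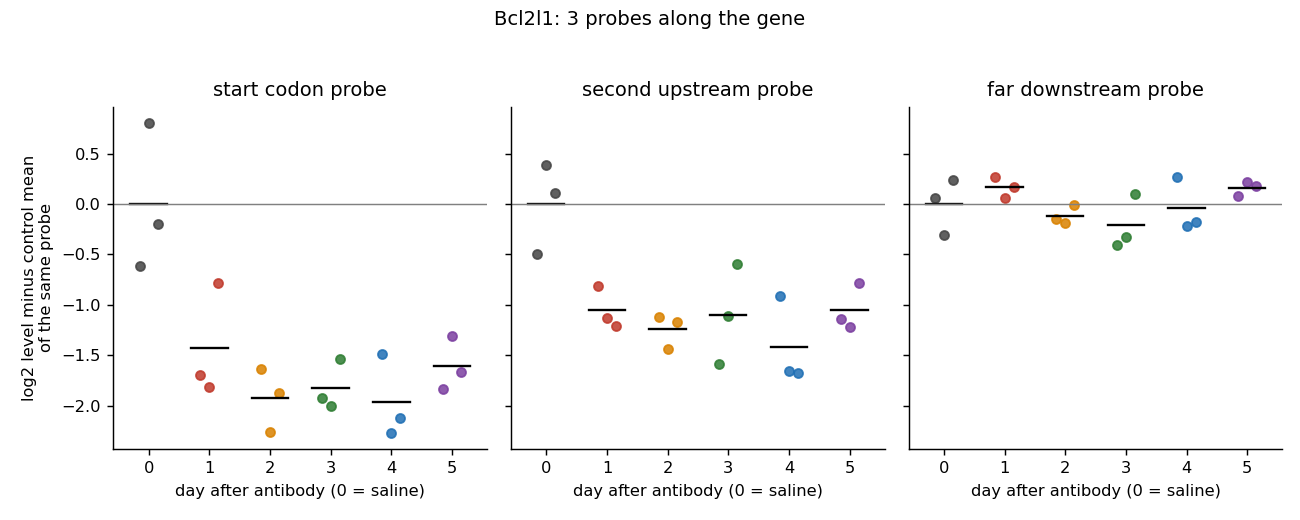
The 3 Bcl2l1 probes that passed the filter, from the start codon (left) to the far downstream end (right), on each array by day (x axis), as log2 level minus the same probe's mean over the 3 control arrays (y axis). Both upstream probes are lower on the antibody arrays, and the far downstream probe overlaps its controls.

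The same comparison was made for every member with more than 1 probe, as the difference between 2 probes of a gene, over the 15 antibody arrays against the 3 controls. Of 7 such pairs, 4 differed by a two-sided exact permutation test over all 816 splits of the arrays, adjusted by Benjamini-Hochberg over the 7. The share of all genes' probe pairs that pass this test was not computed. The count of 4 of 7 is therefore not a result about the members. The test takes all arrays as exchangeable and ignores slide, scan day and the different days after the antibody. All 3 controls share a slide with a single antibody array, so it cannot separate the antibody from the slide. A difference within an array is not altered by subtracting 1 value from all probes of that array, as the 75th percentile, median and reference gene scalings do. Against the far downstream probe of Bcl2l1, the difference was -1.74 for the start codon probe and -1.16 for the second upstream probe (both exact p = 0.00123, the smallest possible, adjusted 0.00287). For Mdm2 the difference of the upstream probe was -0.41 (exact p = 0.00123, adjusted 0.00287), and for Fas it was -0.69 (exact p = 0.00735, adjusted 0.0129). Ccng1, at -0.51 (exact p = 0.424), Bcl2, at -0.12 (exact p = 0.304), and Bax, at -0.01 (exact p = 0.95), did not pass. The Bcl2 pair includes the probe for the other Bcl2 transcript. That probe was well above background on 1 of 3 arrays on each of days 1, 3 and 5. Its dim values were used as measured, so the Bcl2 difference and its p are uncertain. In all 5 genes with 2 mapped probes the upstream one had the lower change, which for Bcl2 rests in part on these dim values.

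This direction was common on the array and not particular to the members. Of 3127 genes with at least 2 mapped probes, 69.5% had the lower change at the most upstream probe, with a median difference of -0.36, and among the 2529 with probes over 1000 bases apart it was 73% and -0.47. Per array, the median over these genes of the upstream minus the downstream value ran from -1.70 to -1.45 on the 15 antibody arrays, against -1.34, -0.86 and -1.29 on the 3 controls (exact permutation p = 0.00123, the smallest of 816 splits). The difference between the groups was -0.47, and this test too cannot separate the antibody from the slide. The antibody array on the controls' own slide, day 1 replicate 1, had -1.65. The highest antibody value, -1.45, was that of day 1 replicate 5, which also had the highest Bcl2l1 start codon value among the antibody arrays. Control replicate 4 had the highest of both over all arrays, -0.86 and 1.96. Over probes well above background on every array, it had Pearson correlations of 0.952 and 0.958 with control replicates 2 and 5, against 0.991 between these. The brightest probes of Ccng1 and Fas, which gave their calls, are the downstream ones. Over the antibody arrays they rose by 1.26 and 1.07, where the upstream probes rose by 0.74 and 0.38. The part of the array-wide shift in the fall of the upstream Bcl2l1 probes and in the rises of Ccng1 and Fas was not tested. The Bcl2l1 difference of -1.74 lay beyond the lower quartile of the 3127 genes, -0.95, as did that of the second upstream probe. Those of Fas, Ccng1, Mdm2 and Bcl2 lay between -0.95 and the upper quartile, 0.09. The Bcl2 difference takes in the dim values of its upstream probe and is uncertain.

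**Figure D5:**
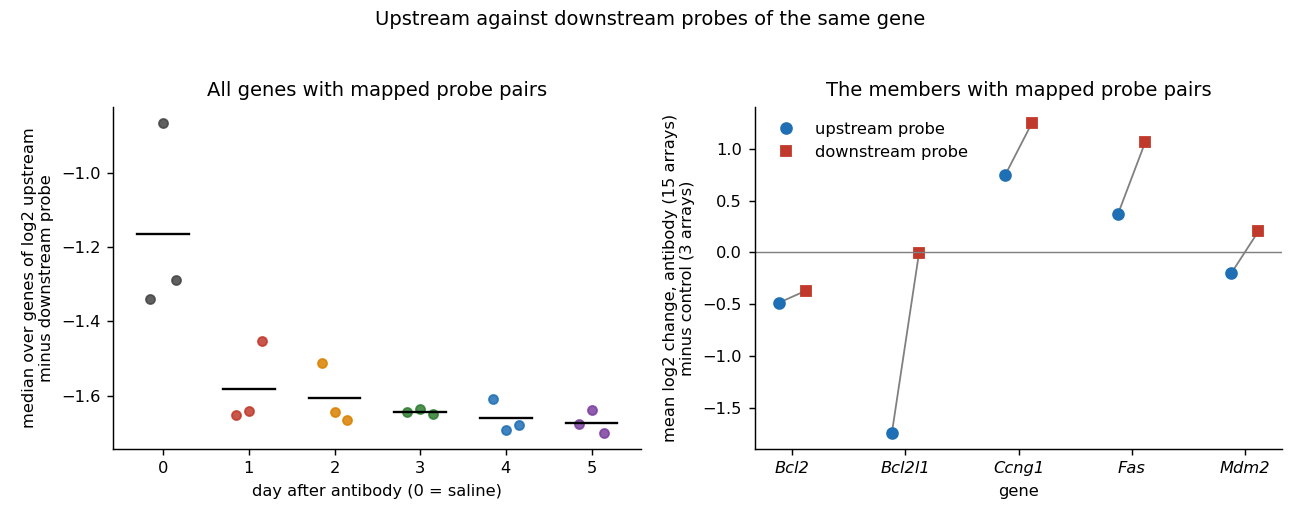
Left, median over 3127 genes of the upstream minus the downstream probe's log2 level on each array (y axis) by day (x axis), with bars for the means of 3 arrays. Right, mean log2 change over the 15 antibody arrays minus the 3 controls (y axis) at the upstream and the downstream probe of each of 5 genes, joined by a line that rises to the downstream probe in all 5. The upstream Bcl2 probe was well above background on 1 of 3 arrays on each of days 1, 3 and 5, so its point is uncertain.

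With the slide as a block, days 1, 3 and 5 could be compared with day 0 only through day 1 replicate 1, the single antibody array on the controls' slide. Each of these comparisons rests on that array. Bcl2a1 then passed on days 1 and 3, with 3.53 and 3.35 (limma adjusted p = 0.0189 and 0.0342), and not on day 5, with 1.92 (0.221). Ccng1 passed on day 1, with 1.26 (0.0295), and not on days 3 and 5, with 1.28 and 1.59 (0.0596 and 0.11). Neither Gadd45a on day 1, with -0.89 (0.13), nor Fas on day 3, with 1.39 (0.181), passed. The start codon probe of Bcl2l1 passed on days 1 and 3, with -1.69 and -2.36 (0.0384 and 0.0411), and the second upstream probe on none of the 3 days, with -0.81, -0.99 and -1.44 (0.0857, 0.115 and 0.127).

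Between days scanned together, the members gave 0 calls in limma's test. The comparisons were day 3 against day 1, where 0.00431% of all genes passed, day 5 against day 1 (0.121%), day 5 against day 3 (0.00863%) and day 4 against day 2 (0.0992%). At an unadjusted p under 0.05 there were 2, 2, 1 and 2 members in these 4 comparisons. They were Gadd45a and Fas for day 3 against day 1, Gadd45a and Bcl2a1 for day 5 against day 1, Bcl2a1 for day 5 against day 3, and Ccng1 and Bcl2a1 for day 4 against day 2. In the order of its means, Bcl2a1 stood highest on day 1, then on days 3, 2, 4 and 5, and lowest on day 0, and days 1, 2 and 3 overlapped, as did days 4 and 5. Fas ran in the order of days 3, 4, 5, 2, 1 and 0, and each neighbouring pair overlapped. Bax had the day order 3, 4, 2, 5, 1 and 0, Mdm2 the order 4, 3, 2, 1, 5 and 0, and Bcl2 the order 0, 2, 1, 3, 4 and 5. For Mdm2, Bax, Bcl2 and Bcl2l1 the lowest and the highest day mean were 0.34, 1.23, 0.54 and 0.38 apart, where the pooled SD within days was 0.13, 0.76, 0.32 and 0.20.

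Around the members, 68 genes of p53 signalling and apoptosis were tested, from 8 lists of 80. Of these, 19 rose and 4 fell on day 1, 17 and 6 on day 2, 23 and 8 on day 3, 17 and 10 on day 4, and 18 and 8 on day 5. As shares, 27.9%, 25%, 33.8%, 25% and 26.5% rose, where 19.2%, 20.8%, 21.7%, 25.6% and 20.9% of all genes did, and 5.88%, 8.82%, 11.8%, 14.7% and 11.8% fell, where 20.7%, 25.1%, 26%, 26.7% and 23.4% of all genes did. The lists' median change was between 0.19 and 0.32 on the 5 days. The direction of such counts depended on the scaling, since with scaling to 12 reference genes 7, 9, 11, 2 and 5 of the 68 rose and 23, 14, 20, 28 and 23 fell, and with scaling to each array's median 30 to 35 rose. The median change of all genes was -0.54 to -0.35 with reference genes and 0.38 to 0.49 with median scaling, against -0.02 to 0.06 with the 75th percentile. In the 4 comparisons between days scanned together limma called none of the 68, with 7, 3, 11 and 9 at an unadjusted p under 0.05.

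Among regulators of p53, Chek1, a checkpoint kinase that is also active in normal division, was not well above background on any control array and was on all antibody arrays. Its level was at least 5.61-, 5.22-, 6.12-, 3.95- and 3.52-fold higher on days 1 to 5, where the bound sets the controls at the lowest signal well above background on each array. The limma adjusted p, from 0.000306 to 0.00102, are those of the measured changes and not of these bounds. Chek2, the checkpoint kinase that phosphorylates p53, rose on all 5 days, most on day 3, by 1.52 ± 0.29. The DNA damage kinase Atm, named after its values were seen, fell on days 4 and 5, with -0.55 and -0.64 (adjusted p = 0.0442 and 0.0265).

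Among 20 other p53 targets tested of 26 listed, 2, 3, 5, 1 and 4 rose and 1, 1, 3, 4 and 2 fell on days 1 to 5. Tnfrsf1b, the second TNF receptor, which leukocytes also carry, had the largest change, 2.70 ± 0.42 on day 3 (6.51-fold, limma adjusted p = 0.000568), and did not pass on day 4, at 0.80. Aen, an exonuclease that acts in apoptotic DNA breakdown, fell on all 5 days, to -1.44 ± 0.23 on day 4 (2.71-fold lower, adjusted p = 0.000354). Eda2r, a receptor of the TNF receptor family, fell on days 3, 4 and 5, by 1.60 on day 5 on the log2 scale (adjusted p = 0.00778). It was dim, at -5.86, -4.64 and -4.55 on day 5 against -4.21, -3.67 and -2.37 on day 0. On days 3 and 5 it was well above background on 2 of 3 arrays, so the size of its fall is uncertain. Cdkn1a and Bbc3, chosen after their values were seen because they are textbook p53 targets, went separate ways. Cdkn1a, the cell-cycle inhibitor p21, changed by -0.53, -0.22, 0.35, -0.27 and -0.67 with an SE of 0.48 and passed on no day, while Bbc3, the killer protein Puma, rose by 1.06 on day 1 (adjusted p = 0.00801), 0.87 on day 3 (0.0139) and 0.71 on day 5 (0.039).

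In the Bcl-2 family, 8 other pro-apoptotic genes were tested. Of these, 4, 2, 3, 2 and 2 rose on days 1 to 5 and 1 fell, Bok on day 2, with -0.57. Bad, which frees Bax by binding Bcl2 and Bcl-xL, rose on all 5 days, by 0.48 to 0.83. Bok and Bad were named after their values were seen. Bak1, the sister of Bax, rose by 1.24 ± 0.25 on day 3 (2.36-fold, limma adjusted p = 0.00161), and Bik, a BH3-only protein, by 0.99 ± 0.30 on the same day (adjusted p = 0.0131). Bnip3, a mitochondrial protein induced by hypoxia, rose by 0.90 on day 4 (adjusted p = 0.0187). Of 3 other anti-apoptotic genes, none rose, and Bcl2l10 fell on days 2 to 5, with -0.94 ± 0.24 on day 2 (adjusted p = 0.00658).

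Of the 8 tested genes of the death receptor pathway, 2, 3, 4, 2 and 2 rose on days 1 to 5 and 1 fell on each day. Faslg, the ligand of Fas made by cytotoxic lymphocytes, rose on days 2 and 3, by 2.04 and 2.59. From the lowest to the highest array it was at -2.17, -0.77 and -0.66 on day 3, against -4.36, -3.98 and -3.03 on day 0, without overlap (6.03-fold, limma adjusted p = 0.00214). The lymphocyte and NK cell markers moved on the same days, with 8 of 10 tested higher on day 2 and 9 of 10 on day 3, and their part in the rise of Faslg was not tested. Tnfsf10, the TRAIL ligand, fell on all 5 days, most on day 4, by 2.21 on the log2 scale (4.62-fold lower, adjusted p = 4e-04). The adaptor Traf2 rose on all 5 days, with 0.93 ± 0.14 on day 5.

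All 12 listed genes of the caspases and the apoptosome were tested. Of these, 6, 4, 5, 6 and 6 rose and 2, 2, 3, 2 and 3 fell on days 1 to 5. Apaf1, the scaffold of the apoptosome, rose on all 5 days, with 1.53 ± 0.25 on day 3 (2.88-fold, limma adjusted p = 0.000673). Casp9, the caspase that Apaf1 activates, fell on all 5 days by its brightest probe, with -1.87 ± 0.34 on day 4 (3.65-fold lower, adjusted p = 0.000625). Its other probe, which lies upstream, passed on no day and changed by 0.11 to 0.44, the opposite order to that of the members' probes. Dffb, the nuclease of DNA laddering, was not well above background on days 1, 2 and 3, and was at least 1.75-, 2.33- and 2.34-fold lower there than on day 0. The limma adjusted p of 0.026, 0.00413 and 0.00926 are those of the measured changes and not of these bounds.

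Of 5 inhibitors of apoptosis, 1, 2, 2, 2 and 0 rose on days 1 to 5 and 1 fell, on day 4. Birc5, or survivin, which also serves mitosis, rose by 2.16 on day 2 and 2.46 ± 0.59 on day 3 (5.49-fold, limma adjusted p = 0.00383), the days on which all 12 proliferation markers rose. Birc3, an NF-kappaB target, rose on days 1 to 4, with 1.12 ± 0.24 on day 1 (adjusted p = 0.00478), and Xiap fell by 0.33 on the log2 scale on day 4 (adjusted p = 0.0348). Of 4 relatives of Gadd45a and Ccng1, 1 rose on each of days 1, 3, 4 and 5 and none fell. Gadd45b rose on day 3, by 0.68 (adjusted p = 0.0323), and Gadd45gip1, which binds Gadd45 proteins, on days 1, 4 and 5, with 0.59 on day 4 (adjusted p = 0.00574).

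The genes whose level ran most like each member over the 18 arrays were taken by Pearson correlation among 12251 other genes with a current symbol, as a description of arrays that share their scaling. For Bcl2a1 they were Rgs18, Lst1 and Tyrobp, of which Lst1 and Tyrobp are known from myeloid cells, with r of 0.966, 0.966 and 0.965. For Ccng1 they were Commd10, Coa4 and Snx6, with r of 0.985, 0.982 and 0.978. For Fas they were Pgm2, Cbr3 and Dusp14 (0.951, 0.948 and 0.939), for Bax LOC681314, Zfhx3 and Hnrnph3 (0.97, 0.917 and 0.906), and for Mdm2 Pnn, Nars1 and Zcchc10 (0.904, 0.865 and 0.863). For Bcl2l1's far downstream probe they were Acaa1a, Rnf186 and Ltbp4 (0.9, 0.89 and 0.878). Gadd45a and Bcl2 had weaker companions, led by Pex11a (0.806) and by Abhd18 (0.805).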

How the data were processed

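RNA from glomeruli was hybridised to Agilent 1-colour rat arrays. The deposited intensity files hold, per the file headers, processed signals from Feature Extraction 10.7.3.1 with rn4 probe positions, and 56 values were missing. The authors' deposited value table reads as log2 and served as an alternative. Its quantiles are shared by days 0, 2 and 4 and, separately, by days 1, 3 and 5, and how it was made is not given in the sources used here.

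From the signals, log2 minus each array's 75th percentile was computed for 41012 probes. Control spots were left out, and a probe had to be well above background on all 3 arrays of at least 1 day. That left 27836 probes and, by the brightest probe of each gene, 23187 genes and transcripts. Groups were compared with limma 3.58.1 (lmFit and eBayes, R 4.3.3) over all 18 arrays, with Benjamini-Hochberg adjustment within each comparison and a threshold of 0.05. Errors are SE from this fit. The procedure was tested on simulated data. Probes were named through target accessions or symbols. The genes named from each pathway list were those with the largest changes among those past the threshold, besides those said to be chosen afterwards. A result on 1 gene of these lists is not reported here. Alternatives were other scalings, normexp, filters, the mean of a gene's probes, blocks and leaving out arrays. The members and lists were chosen with earlier results of these data known, and the comparison of upstream and downstream probes was added after the data were seen. Replicate numbers were not taken to pair arrays. Animals were killed at their time point, so same-numbered arrays of 2 time points come from different rats. Such arrays did not deviate together either (r from -0.377 to 0.263).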

Additional observations from a re-analysis of the deposited data

Results flagged for a closer look

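Bcl2l1's brightest probe moved in opposite directions on different days, with every array of 1 day above and every array of the other below the control mean. The change was 0.17 on day 1 and -0.11 on day 2, a difference of -0.28, and -0.11 on day 2 and 0.16 on day 5, a difference of 0.27. The differences themselves were not tested, none of the 3 changes passed limma's test, and day 2 was scanned on another day than days 1 and 5.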

How the results depend on the processing

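With normexp, members called numbered 0 on day 1, 1 on day 2, 0 on day 5 and 0 over the 6 time points, and genes called 29, 1485, 1544, 2604 and 56 on days 1 to 5. On the 16 arrays where normexp gave a working fit, an alternative added after seeing the data, 5825 genes were called on day 1, 5 members on day 4, 1 on day 5, 1 for day 5 against day 1 and 1 for day 5 against day 3, and Bcl2a1 on day 5 turned to -0.0155. Median scaling called 4, 5, 5 and 5 members on days 2 to 5, and reference gene scaling 5 on days 1 and 3, 4 on day 5 and 5 over the time points, with Mdm2 turned to -0.38 on day 1 and -0.36 on day 5. Of called genes, 45.3% to 48.9% were higher, against 70% to 75.8% with median scaling and 10.9% to 19% with reference genes. The mean of a gene's probes turned Bcl2l1 to -0.77 on day 1 and -0.83 on day 5, since it takes in the upstream probes. Slide as a fixed block gave 4105, 2912 and 103 genes on days 1, 3 and 5, with 1 member on day 3 and 0 on day 5. Fitting only the 6 arrays of both days gave 3302 genes on day 1, and 4816 genes and 1 member on day 5. With the replicate block, 7814 genes were called on day 4, where the numbers do not pair arrays. Leaving out 1 array gave 4616 to 9639 genes on day 1, 6515 to 10565 genes and 1 to 3 members on day 5, and 0 to 1 members for day 5 against day 1 and against day 3. Where not stated, the cause was not tested. Against day 0, the 2 upstream Bcl2l1 probes were lower under every alternative run on them, although the start codon and the second probe kept 2 of 3 and 0 of 3 calls with slide as a fixed block, 3 of 5 and 2 of 5 with normexp, and 5 of 5 and 4 of 5 with median scaling.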
